A study of Mus musculus with 10 samples.

Results

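Long intergenic noncoding RNAs (lincRNAs) are transcripts, often spliced and polyadenylated, that come from loci outside protein-coding genes and are not translated into known proteins. Some are abundant and well described: Malat1 stays in nuclear speckles, Neat1 is the scaffold of paraspeckles, Snhg genes carry small nucleolar RNAs (snoRNAs) in their introns, and Bc1 is a small RNA of neuronal dendrites. Many others have only a catalogue number, and some share a promoter region with a coding neighbour. The genes described here were selected on their control level: they are those of GENCODE M21 biotype lincRNA on chromosomes 1 to 19 with a mean of at least 5 CPM (read counts scaled to a common library size) over the 3 dCas9-empty and 2 mCherry control libraries. That rule took 92 genes, out of 4979 autosomal lincRNA genes (1914 with a read in a control library) and 55401 genes in all.

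The libraries are bulk RNA-seq of Neuro2a, a mouse neuroblastoma line, given as genotype wild-type in every group. Cells were transfected with 0.5 µg of plasmid using Lipofectamine 2000, had their medium changed at 24 h and were incubated for 72 h. A nuclease-dead Cas9 directed at SCN9A (dCas9-SCN9A, 3 libraries) was compared with dCas9-empty (3 libraries), and a zinc-finger protein directed at SCN9A (ZF-SCN9A, 2 libraries) with mCherry (2 libraries), a fluorescent protein. Scn9a encodes the sodium channel Nav1.7. Where the repressors bind and what dCas9-empty lacks is not given in the sources used here. Nothing in the labels says that replicates are separate cultures, so p-values cover only sample-to-sample spread and part of it may be technical. In bulk RNA, fewer cells expressing a gene and less RNA per cell cannot be told apart.

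Gene counts per library ran from 15356843 to 18984566 in the dCas9 pair and from 4412097 to 7478956 in the ZF pair. Scn9a was at 77.6 ± 2.77 CPM (SD, n = 3) in dCas9-empty and 30.1 ± 1.23 in dCas9-SCN9A, and at 58.9 ± 4.27 (SD, n = 2) in mCherry and 17.3 ± 2.30 in ZF-SCN9A. Its level was therefore lower in every library of either repressor. Of 16 sympathoadrenal and neuronal markers, 14 passed the count filter, while only 4 of 10 fibroblast, 4 of 10 glia and 3 of 10 immune and endothelial markers passed it in the dCas9 pair. The 92 lincRNAs together held 0.223% to 0.274% of gene counts, and each was detected in all 10 libraries. The library dCas9-empty replicate 1 stood apart for this class: it held the lowest of the 3 dCas9-empty values for 59.8% of the 92 genes, against 32.6% of protein-coding genes that reached the same minimum. Values without it stand beside the main dCas9 results.

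Because the control level chose the genes, the levels that follow are a description with no test. Per kilobase of exon, which allows genes of different length to be compared, the class was steep at the top: Bc1 stood at 2091 CPM per kilobase, Gm10076 at 344, Epb41l4aos at 51.4, Snhg6 at 50.3 and Snhg12 at 40.8. Gm34152 (38.3), Gm42047 (37.7), Malat1 (32.7), 2900097C17Rik (30.5) and Gm30835 (23.7) completed the first 10, whereas the median of the 92 was 3.84 and the lowest, C130073E24Rik, was at 0.278. In plain CPM, 5 genes exceeded 100 and together held 44.5% of the class, and 49 genes were under 10 CPM. The genes just inside the minimum were Gm30074 at 5.23, Gm34030 at 5.09 and EU599041 at 5.02 CPM, and those just outside were 4930516B21Rik at 4.73, A330074K22Rik at 4.70 and 4632404H12Rik at 4.68.

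**Figure D1:**
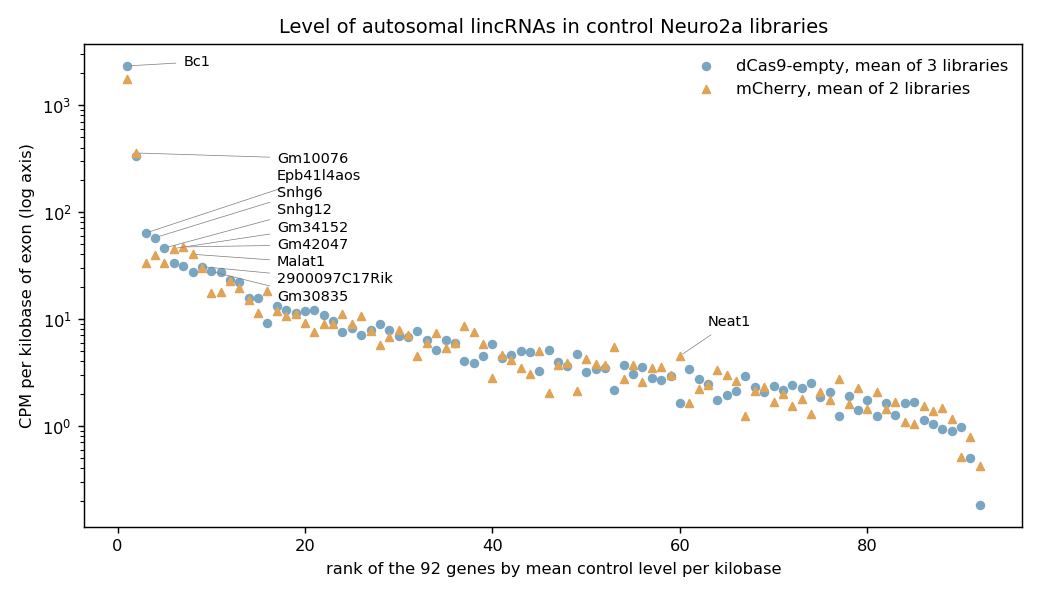
Control level of the 92 autosomal lincRNAs per kilobase of exon (log axis), ranked by their mean over 5 control libraries; circles are dCas9-empty means and triangles mCherry means. Bc1 stands alone at 2091 CPM per kilobase, and Neat1 is the labelled gene whose control arms lie far apart.

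Bc1 is the shortest of the 92, a single exon of 168 bases on chromosome 7 (GRCm38, chr7:144914470-144914637, plus strand). It arose from a tRNA gene, is transcribed by RNA polymerase III and represses translation in dendrites. Its sequence, from GENCODE M21, is shown because it accounts for the highest level in the class. Capitals mark core letters of the promoter boxes inside tRNA genes, GCNCAGT for the A box and GGTTC for the B box, searched on the given strand; a match is a description of the letters only.
Bc1: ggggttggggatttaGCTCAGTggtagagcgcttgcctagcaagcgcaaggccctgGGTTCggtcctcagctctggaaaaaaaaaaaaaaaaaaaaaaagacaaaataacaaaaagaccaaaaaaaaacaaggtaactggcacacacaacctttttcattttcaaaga

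Bc1 was at 415, 384 and 370 CPM in dCas9-empty and at 373, 413 and 394 in dCas9-SCN9A. These groups overlapped, and the log2 fold change was 0.00 ± 0.06 (SE). In mCherry it was at 331 and 256 CPM and in ZF-SCN9A at 501 and 387. Both ZF-SCN9A values lay above both mCherry values, but the log2 difference of 0.59 ± 0.15 did not pass the threshold (edgeR quasi-likelihood test, Benjamini-Hochberg adjusted p = 0.0841). Bc1 did pass in each of the 4 settings that leave out 1 library, at log2 0.39 to 0.79 (edgeR adjusted p at most 0.00378). In those settings 1 arm holds a single library, which is assumed to vary like the other group. Over the 15 alternative settings 8 called Bc1 and 7 did not. The 4 settings above are among those 8, so some edgeR settings that keep every library called it too. DESeq2 (adjusted p = 0.514) and limma-voom (adjusted p = 0.152) did not call it on all 4 libraries.

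Counts of some abundant members could be shared with another locus. Gm10076 matched transcripts of Rpl41, a ribosomal protein gene, along 100% of its 383-base transcript at 99.5% identity in the longest stretch, and AC166110.4 matched Sod2 along all of its 3095 bases. In all, 36 of the 92 had a stretch of at least 100 bases at 95% identity or more in a gene elsewhere, and in 11 such stretches covered at least 50% of a transcript, among them 2900097C17Rik (known as Norad, a cytoplasmic RNA that binds Pumilio proteins), Gm42047, Meg3 and Bc1. That share is of the best-covered annotated transcript, which can be a small part of the gene. The transcript in question has 339 bases in 2900097C17Rik, whose exons span 4915 bases, and 457 in Meg3, whose exons span 18089. Levels of those 11 are thus uncertain to an extent that differs between genes and was not measured. Exons of 11 members overlapped another gene's over at least 10% of their bases, which includes the snoRNAs inside Snhg12, and the unstranded counts cannot separate antisense partners.

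The class was mixed in structure and position. Meg3 and Pvt1 have up to 10 exons while 10 genes have a single exon, and the median exon length was 2807 bases. The nearest protein-coding gene lay within 5 kb for 34 members and over 100 kb away for 15. In 7 a coding gene began within 1 kb in the opposite direction. snoRNAs lay inside 5 and microRNAs inside 4. The median coefficient of variation between replicates was 8.32% to 10.3% in the 4 groups, against 5.00% to 5.87% for protein-coding genes of the same minimum. Those coding genes had a median control level of 46.7 CPM against 8.94 for the lincRNAs, so the scatter was not compared at a matched level.

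The 2 control groups differed in several of these RNAs, given here without a test. Neat1 was at 23.1, 32.1 and 47.0 CPM in dCas9-empty and at 99.4 and 87.6 in mCherry, 2.74-fold higher on average with no overlap. At least 2-fold differences were seen in 5 members higher in mCherry and 5 higher in dCas9-empty, and 60 lay within 1.5-fold.

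With dCas9-SCN9A, 1 of the 92 lincRNAs passed the test, Gm45833, which rose. The test is edgeR's quasi-likelihood test with p-values adjusted by Benjamini-Hochberg over all 14628 genes tested, called at an adjusted p under 0.05. Of all genes tested, 0.0410% were called (0.0342% higher and 0.00684% lower). At an unadjusted p under 0.05 there were 12 members (10 higher, 2 lower), or 13.0% of them against 10.1% of all genes tested. The dCas9 and control libraries did not overlap for 20 members (18 higher, 2 lower), 21.7% against 15.0% (8.11% higher and 6.90% lower among all genes). DESeq2 called 2 members, against 0.191% of all genes it gave an adjusted p, and limma-voom called 1, against 0.0273%.

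Gm45833 is a spliced RNA of 2 exons on chromosome 8 (chr8:121666814-121674088, minus strand), inside the body of the gene model Gm20388. It was at 10.3, 9.85 and 11.3 CPM in dCas9-empty and at 16.1, 17.1 and 20.3 CPM in dCas9-SCN9A. The groups did not overlap, and the change was 1.69-fold (log2 0.75 ± 0.11, SE, edgeR adjusted p = 0.00955). Without dCas9-empty replicate 1 it held (0.75, adjusted p = 0.0257 by edgeR). The call was lost without dCas9-empty replicate 2 (adjusted p = 0.0624). It was also lost without dCas9-SCN9A replicate 3 (adjusted p = 0.0973). In the ZF pair it stood at 21.9 and 19.5 CPM in mCherry and 18.9 and 17.9 in ZF-SCN9A, a log2 fold change of -0.17 ± 0.17 that did not pass (edgeR adjusted p = 0.692).

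The other large shifts with dCas9 did not pass on all 6 libraries. Gm10827, an RNA of chromosome 10 that starts 55 bases from the oppositely directed coding gene Ccdc28a, was at 24.0, 26.3 and 29.9 CPM in dCas9-empty and 40.9, 39.1 and 59.4 in dCas9-SCN9A. These groups did not overlap either, at log2 0.78 ± 0.16 (edgeR adjusted p = 0.213), and 0.71 without dCas9-empty replicate 1 (edgeR adjusted p = 0.558). DESeq2 did call it (adjusted p = 4.82e-06), as did edgeR without the count filter or with the replicate number as a block. Those edgeR settings called 172 and 262 genes in all, against 6 in the main fit. Ccdc28a itself had a log2 fold change of 0.15 ± 0.09. The snoRNA-bearing 2700038G22Rik had 0.48 ± 0.17 and Neat1 0.47 ± 0.27. Neat1 moved with the control library left out. It had 0.27 without dCas9-empty replicate 1 (edgeR adjusted p = 0.714) and passed without replicate 3, its highest control (0.78, edgeR adjusted p = 0.0190).
At the low end were Lncenc1, a noncoding RNA named for mouse embryonic stem cells (log2 -0.33 ± 0.15), Gm13632 (-0.19 ± 0.15), A230006K03Rik (-0.16 ± 0.15) and 2900097C17Rik (-0.14 ± 0.05). On all 6 libraries and without a block or another filter, edgeR called none of these 7 and limma-voom 0 of them. The lincRNA 2900097C17Rik, with 149, 154 and 151 CPM against 136, 141 and 140, was 1 of the 2 members whose dCas9-SCN9A libraries all lay below the controls.

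Small positive values were frequent. The log2 fold change with dCas9 was positive for 71 of the 92 (median 0.08), against 51.7% of all genes tested (median 0.01) and 45.02% of protein-coding genes at the same minimum (median -0.01). In other noncoding biotypes at that minimum the positive share ran from 57.1% of 7 bidirectional promoter RNAs to 85.7% of 7 genes of biotype TEC. Between these were 83.0% of 47 processed transcripts, 76.2% of 21 antisense RNAs and 68.4% of 95 processed pseudogenes. Without dCas9-empty replicate 1 the lincRNA count was 62 of 92 and the median 0.08. Leaving out any other of the 6 libraries gave 63 to 73 positive and a median of 0.06 to 0.14. The higher medians were 0.13, with dCas9-empty replicate 2 or 3 removed, and 0.14, with dCas9-SCN9A replicate 3 removed. Correcting the counts for exon length gave 60 of 92 and a median of 0.06. Where members were instead required to reach 5 CPM in the mCherry libraries, which take no part in this comparison, 65 of 85 were positive. Malat1 is 1 of the RNAs at their lowest in dCas9-empty replicate 1, at 143, 191 and 246 CPM in dCas9-empty and 231, 256 and 264 in dCas9-SCN9A. Its groups overlapped (log2 0.36 ± 0.21, edgeR adjusted p = 0.669), and the value was 0.19 without that replicate (edgeR adjusted p = 0.721) and 0.57 without dCas9-empty replicate 3 (edgeR adjusted p = 0.138).

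**Figure D2:**
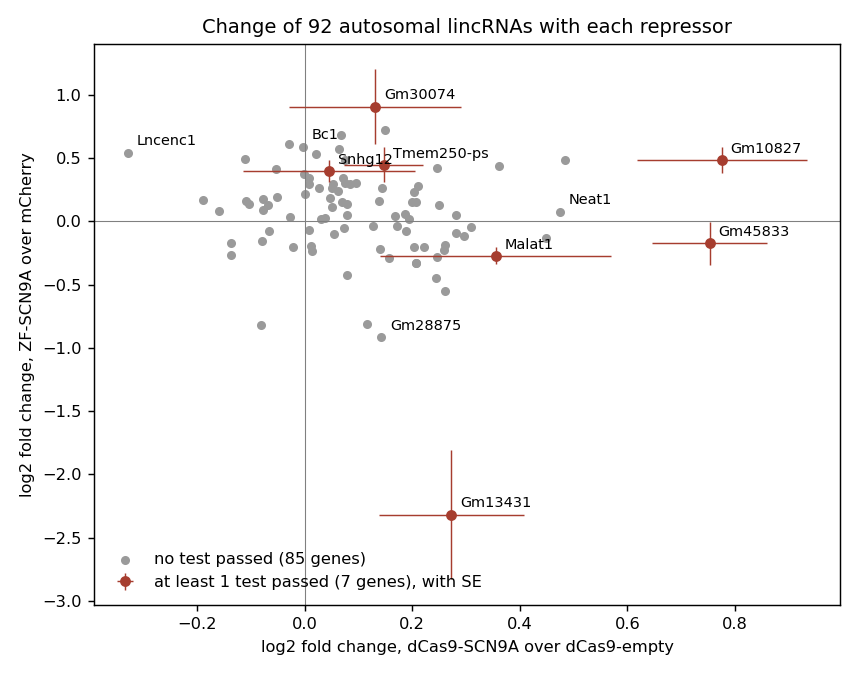
Log2 fold change of the 92 autosomal lincRNAs with dCas9-SCN9A (horizontal) and with ZF-SCN9A (vertical), each over its own control; red points passed at least 1 test and carry standard errors. Gm13431 lies at -2.32 with ZF-SCN9A, and most points lie to the right of 0 with dCas9.

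With ZF-SCN9A, 6 lincRNAs passed: Gm10827, Snhg12, Tmem250-ps and Gm30074 rose, and Gm13431 and Malat1 fell. That is 6.52% of the members, close to the 4.72% called among all 12899 genes tested in this pair (1.95% higher and 2.78% lower). At an unadjusted p under 0.05 there were 20 members (12 higher, 8 lower), 21.7% against 16.2%. The 2 libraries on each side did not overlap for 49 members, 53.3% against 45.5% (25.2% higher and 20.2% lower among all genes). limma-voom also called 6, against 4.78% of all genes, and DESeq2 called 0 of the 77 members to which it gave an adjusted p (11 of 92 at an unadjusted p under 0.05), against 1.20%. The median log2 fold change was 0.10, with 57 of 92 positive, and it was -0.02 when genes down to 2 CPM were taken.

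Gm13431 had the largest change of the class in either pair. It lies on chromosome 2 (chr2:36216777-36222934, plus strand) with up to 4 exons, 7492 bases before Ptgs1, the cyclooxygenase 1 gene that makes prostaglandin precursors, on the same strand. The first 150 bases of its transcript with the earliest annotated start are shown, from GENCODE M21, because this gene carries the largest change; exon 1 covers chr2:36216777-36216853, the printed part of exon 2 starts at chr2:36217192, and the capitals mark 10 bases on each side of the splice junction.
Gm13431: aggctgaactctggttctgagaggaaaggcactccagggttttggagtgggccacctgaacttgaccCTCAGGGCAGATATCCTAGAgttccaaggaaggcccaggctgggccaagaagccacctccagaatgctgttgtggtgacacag

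Gm13431 had 32 and 34 reads in mCherry, or 4.86 and 4.55 CPM, and 6 and 4 reads in ZF-SCN9A, or 0.953 and 0.907 CPM. The groups lay far apart: expression fell by 2.32 ± 0.51 (SE) on the log2 scale, which is 4.99-fold lower (edgeR adjusted p = 0.000434). Without ZF-SCN9A replicate 1 the log2 value was -2.36 at an adjusted p of 0.0537. In the dCas9 pair it stood at 6.24, 8.16 and 7.88 CPM in dCas9-empty and 8.47, 9.79 and 8.99 in dCas9-SCN9A, a log2 fold change of 0.27 ± 0.13 that did not pass (edgeR adjusted p = 0.520). The 2 changes differed by 2.61 ± 0.43 on the log2 scale (edgeR test of the difference, adjusted p = 0.000438).

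Its downstream neighbour moved the same way. Ptgs1 was at 95.1 ± 0.680 CPM (SD, n = 2) in mCherry and 62.7 ± 1.16 in ZF-SCN9A, and fell by 0.61 ± 0.10 on the log2 scale (edgeR adjusted p = 2.8e-08). With dCas9 its log2 fold change was 0.04 ± 0.08, and the difference between the pairs was 0.66 ± 0.13 (edgeR adjusted p = 0.00743). Rbm18 and Mrrf, whose starts lie about 80 kb before that of Gm13431, had ZF log2 fold changes of 0.06 ± 0.11 and -0.02 ± 0.17.

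**Figure D3:**
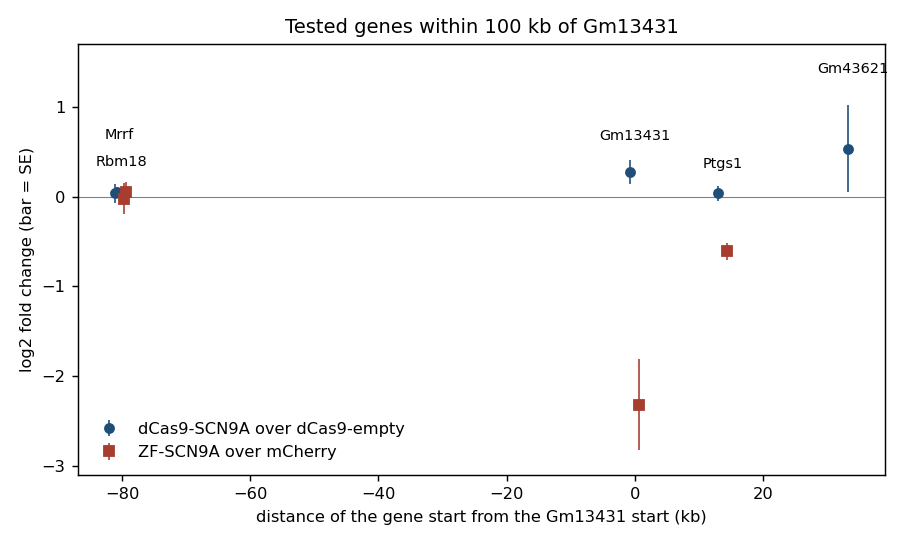
Log2 fold change (bars are standard errors) of Gm13431 and the tested genes within 100 kb, by distance between gene starts; circles are the dCas9 pair and squares the ZF pair. Gm13431 (-2.32) and Ptgs1 (-0.61) are the genes that fell with ZF-SCN9A, and Gm43621 was tested in the dCas9 pair only.

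Malat1 and Snhg12, both abundant and widely studied, moved in opposite directions with ZF-SCN9A. Malat1 was at 276 and 285 CPM in mCherry and 221 and 248 in ZF-SCN9A. The groups did not overlap, and it fell by 0.27 ± 0.07 on the log2 scale (edgeR adjusted p = 0.00289). Snhg12, host of 5 annotated snoRNA genes including Snora44, Snora61 and Snord99, was at 77.7 and 80.6 CPM in mCherry and 107 and 103 in ZF-SCN9A, a rise of 0.40 ± 0.09 on the log2 scale (edgeR adjusted p = 0.000572). With dCas9 its libraries overlapped, at 95.9, 121 and 114 CPM against 105, 138 and 102 (log2 0.05 ± 0.16). With ZF-SCN9A replicate 1 left out neither was called: Malat1 had -0.19 (edgeR adjusted p = 0.467) and Snhg12 0.37 (edgeR adjusted p = 0.0876). That setting leaves 1 ZF-SCN9A library, so its spread is taken from mCherry. The test of the difference between repressors did not pass for Malat1 (0.64 ± 0.30, edgeR adjusted p = 0.518) nor for Snhg12 (-0.35 ± 0.25, edgeR adjusted p = 0.687).

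The promoter windows of these 2 genes (250 bases before to 50 after the RefSeq start, GRCm38.p6) are printed so that the contrast can be read beside the DNA; capitals mark TGACG on either strand, a partial site of CREB and ATF factors. The Snhg12 window is chr4:132308428-132308727 on the plus strand and its RefSeq start lies 55 bases after the GENCODE start; the Malat1 window is chr19:5802623-5802922 on the minus strand.
Snhg12: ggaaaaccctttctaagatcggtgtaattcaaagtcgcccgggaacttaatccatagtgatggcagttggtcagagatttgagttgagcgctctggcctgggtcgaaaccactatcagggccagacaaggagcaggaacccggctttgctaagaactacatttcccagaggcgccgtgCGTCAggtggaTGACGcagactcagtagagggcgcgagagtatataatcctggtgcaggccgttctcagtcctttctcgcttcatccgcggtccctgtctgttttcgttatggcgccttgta
Malat1: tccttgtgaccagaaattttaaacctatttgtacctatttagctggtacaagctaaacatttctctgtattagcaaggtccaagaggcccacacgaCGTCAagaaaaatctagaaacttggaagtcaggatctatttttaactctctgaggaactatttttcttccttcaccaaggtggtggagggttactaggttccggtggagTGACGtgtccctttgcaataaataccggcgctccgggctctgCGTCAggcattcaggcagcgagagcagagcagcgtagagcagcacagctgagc

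Both windows hold the TGACG letters, 2 times in Snhg12 and 3 times in Malat1. Whether any factor binds there or has a part in these changes was not tested. RefSeq windows were found for 56 of the 92 genes (72 windows). TGACG on either strand was in 13.9% of those and in 20.8% of all 32851 windows. The Sp1 box GGGCGG was in 19.4% against 35.7%, the CCAAT box in 45.8% against 37.4%, and the TATA sequence TATAAA in 19.4% against 13.6%.

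The remaining ZF calls were Gm10827, Tmem250-ps and Gm30074. Gm10827 was at 57.5 and 48.9 CPM in mCherry and 78.8 and 70.5 in ZF-SCN9A, without overlap, and rose by 0.49 ± 0.10 on the log2 scale (edgeR adjusted p = 0.000231), while Ccdc28a had 0.08 ± 0.14. That call too was lost when ZF-SCN9A replicate 1 was left out (0.40, edgeR adjusted p = 0.141). Tmem250-ps, named as a pseudogene and lying on chromosome 2, was at 25.8 and 27.1 CPM in mCherry and 36.4 and 36.5 in ZF-SCN9A (log2 0.45 ± 0.14, edgeR adjusted p = 0.0315), and at 31.3, 29.1 and 30.3 against 32.2, 35.0 and 34.5 in the dCas9 pair (0.15 ± 0.07). Gm10827 and Tmem250-ps were the 2 of the 4 risers whose dCas9-SCN9A libraries also lay above all dCas9-empty libraries. Gm30074, of chromosome 3, had 33 and 30 reads in mCherry and 54 and 37 in ZF-SCN9A. That is 5.01 and 4.01 CPM against 8.57 and 8.39 (log2 0.90 ± 0.29, edgeR adjusted p = 0.0457), without overlap. Tmem250-ps and Gm30074 lost their calls in each of the 4 settings that leave out 1 library, with edgeR adjusted p from 0.0533 to 0.257 for Tmem250-ps and from 0.0967 to 0.327 for Gm30074.

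**Figure D4:**
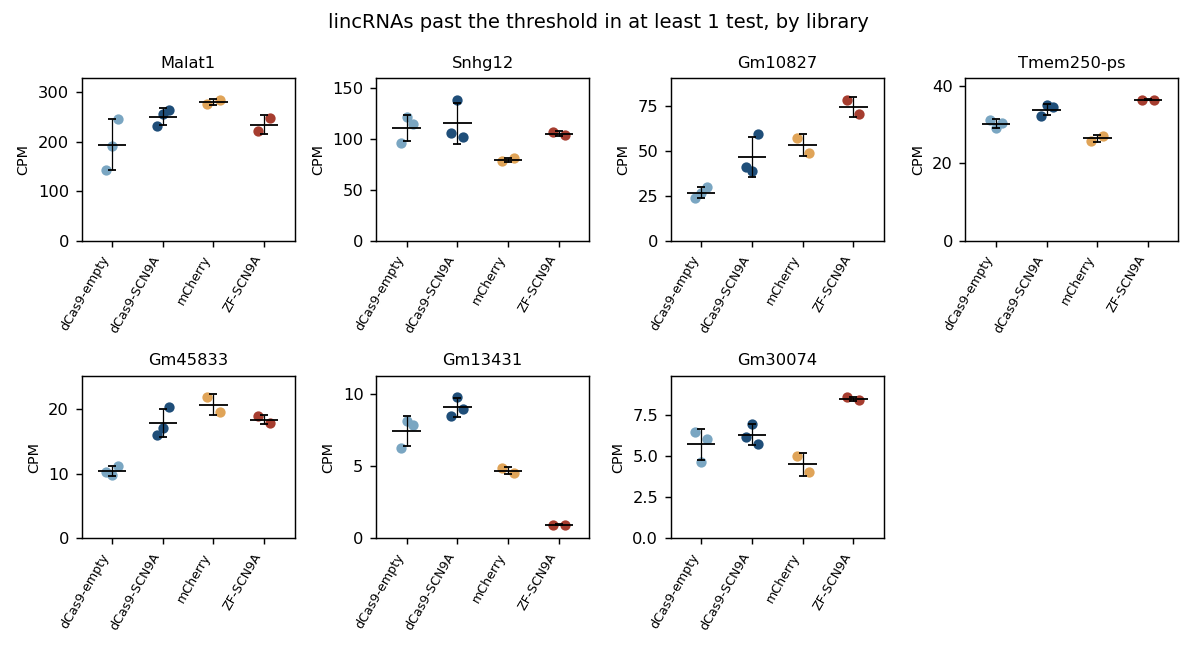
CPM in each library of the 7 lincRNAs that passed at least 1 test; points are libraries, lines are group means and bars are SD (n = 3 for the dCas9 pair, n = 2 for the ZF pair). Gm13431 is at 0.953 and 0.907 CPM in ZF-SCN9A, below all other libraries.

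The other large ZF values did not pass the test on all 4 libraries. On the high side, Gm34030, which shares 74.4% of its exon bases with the lincRNA 5033428I22Rik beside Hand2, had a log2 fold change of 0.72 ± 0.40, Gm10605 0.68 ± 0.31 and Gm13073 0.61 ± 0.24. On the low side, Gm28875 had -0.91 ± 0.39, Gm29260 -0.82 ± 0.28 and C130073E24Rik -0.81 ± 0.30, which passed with mCherry replicate 2 removed (-1.14, edgeR adjusted p = 0.0174). The Gm28875 libraries were at 4.55 and 5.35 CPM in mCherry and 1.75 and 3.85 in ZF-SCN9A, and its value was -0.38 without ZF-SCN9A replicate 1. Syne3, a nuclear envelope protein gene 3244 bases from Gm28875, did fall (log2 -0.50, edgeR adjusted p = 0.039).
Each member was also set beside a protein-coding neighbour that had a value in both pairs. That neighbour was not always the nearest annotated coding gene. For Epb41l4aos it was Nrep, 330863 bases away, although Epb41l4a lies at 341 bases. In 68 members the neighbour so taken lay within 100 kb, Gm13431 and Ptgs1 among them. Their ZF log2 fold changes had Pearson r = 0.39 and Spearman 0.31, and the dCas9 values 0.09 and 0.06. Over all 92 members the ZF values gave 0.29 and 0.23, and the dCas9 values 0.15 and 0.13. Each pair of values shares its libraries, and the genes are not independent. Of the 92 neighbours so taken, 7 were called with ZF, all lower than in mCherry, with Hand2 counted for 2 lincRNAs. Among all genes tested 2.78% were called lower.

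SnoRNA hosts had several ZF calls. Of the 92 lincRNAs 5 hold snoRNAs, and in a list of 22 noncoding hosts, drawn up with earlier results known, 14 were tested. With ZF-SCN9A 5 of those 14 rose and 0 fell (Snhg12 among the 92, and Gas5, Snhg1, Snhg5 and Zfas1 outside them), against 1.95% of all genes tested called higher. Gas5, a growth-arrest transcript, had 0.32 ± 0.07, Snhg1 0.31 ± 0.08, Snhg5 0.30 ± 0.08 and Zfas1 0.24 ± 0.08 on the log2 scale. The list's median was 0.26 against 0.00 over all genes tested. Of the lincRNA hosts that did not pass, Epb41l4aos had 0.49 ± 0.18 (edgeR adjusted p = 0.0922; 0.65 and 0.0491 with mCherry replicate 2 removed), Snhg20 0.28 ± 0.15 and Snhg6 0.11 ± 0.12.
With dCas9 edgeR called 0 of the 14 (2 at an unadjusted p under 0.05), as did DESeq2 and limma-voom, and the median was 0.09. It called 1 (Snhg17) without the filter and 2 (Rian and Snhg17) with the replicate block and exon length correction together. Over all genes those settings called 172 and 95. The dCas9 median was 0.05 without dCas9-empty replicate 1. It was 0.01 without dCas9-SCN9A replicate 2 (8 of 14 positive), 0.14 with dCas9-empty replicate 2 removed, and 0.13 and 0.15 with dCas9-SCN9A replicates 1 and 3 removed. The ZF and dCas9 changes of the list were not tested against each other as a group. The list's ZF median was 0.19 and 0.31 with mCherry replicates 1 and 2 removed in turn. It was 0.25 and 0.20 with ZF-SCN9A replicates 1 and 2 removed in turn. Those fits leave 1 library in a group, so their calls are not counted here. Counts of 1 strand only gave 3 ZF calls, with 283 over all genes. A single fit of all 10 libraries gave 1 (Gas5), with 348. On all 4 ZF-pair libraries limma-voom called 5 and DESeq2 called 1 (Gas5). No member of the list was called lower in the ZF pair under any of the settings run.

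**Figure D5:**
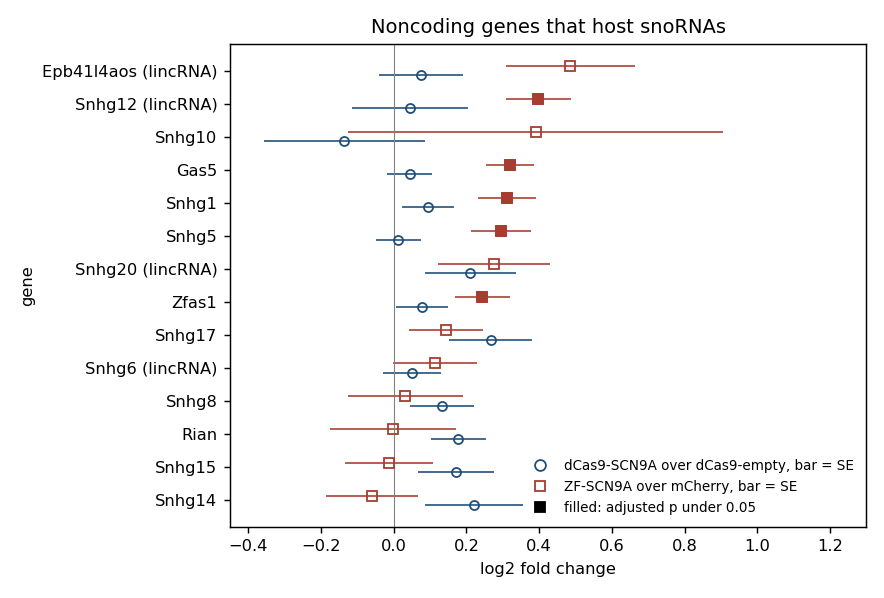
Log2 fold change with standard error of the 14 tested noncoding snoRNA hosts in the dCas9 pair (circles) and the ZF pair (squares); filled symbols have an adjusted p under 0.05. The 5 filled squares are Snhg12, Gas5, Snhg1, Snhg5 and Zfas1, between 0.24 and 0.40.

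The other noncoding lists held few calls. Of 6 tested nuclear-retained noncoding genes, 1 (Malat1) fell with ZF. Neat1 in the ZF pair was at 99.4 and 87.6 CPM against 104 and 93.6, a log2 fold change of 0.08 ± 0.09. Pvt1, beside Myc, had 0.10 ± 0.09 with dCas9 and 0.30 ± 0.16 with ZF. Meg3, the maternal RNA of the Dlk1-Dio3 imprinted locus, had 0.25 ± 0.10 and 0.13 ± 0.23, and Mir17hg, host of the miR-17 to miR-92 cluster, 0.30 ± 0.14 and -0.12 ± 0.27. Dlk1, a coding gene of the Dlk1-Dio3 locus, was higher with ZF (log2 0.54 ± 0.08, edgeR adjusted p = 3.8e-09). It was the 1 call among the 4 genes of that locus tested in the ZF pair. On all libraries of a pair Neat1, Pvt1, Meg3 and Mir17hg did not pass the edgeR test; with dCas9, Neat1 passed without dCas9-empty replicate 3 (0.78) and Meg3 with the replicate block and length correction together (0.37, edgeR adjusted p = 0.0418). Proteins of the structures and decay routes that handle such RNAs gave 1 call lower of 20 paraspeckle proteins, 1 higher of 21 nonsense-mediated decay factors and 1 lower of 20 exosome genes with ZF, near the 4.72% called among all genes tested. The list of sympathoadrenal and neuronal markers, which holds no lincRNA, had 6 of 14 tested genes called with ZF. Ret, Dbh and Chga were higher (log2 0.31 ± 0.06, 0.71 ± 0.18 and 0.25 ± 0.07), and Hand2, Gata2 and Isl1 were lower (-0.20 ± 0.06, -0.58 ± 0.07 and -0.41 ± 0.10). Counts of 1 strand only gave 3 of these calls (Chga, Gata2 and Ret), with 283 over all genes. A single fit of all 10 libraries gave 3 (Gata2, Isl1 and Ret), with 348. Fits without 1 library of the ZF pair leave 1 library in a group, and their calls are not counted here. On all 4 libraries limma-voom called 6 and DESeq2 2 (Gata2 and Ret). With dCas9 edgeR, DESeq2 and limma-voom each called 0 of the 14 (1 at an unadjusted p under 0.05). The part of these marker changes in the lincRNA values was not tested.

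The test of the difference between the 2 repressors called 2 members, Gm13431 and Gm45833, or 2.17% of the members against 0.907% of the 15766 genes tested (0.647% higher and 0.260% lower). DESeq2 and limma-voom called the same number, 2, against 1.43% and 0.710% of all genes. For Gm45833 the dCas9 change exceeded the ZF change by 0.93 ± 0.19 on the log2 scale (edgeR adjusted p = 0.00675). This call was lost when mCherry replicate 1 (adjusted p = 0.0987), ZF-SCN9A replicate 1 (0.0594) or ZF-SCN9A replicate 2 (0.0566) was left out. Over the 92 members the 2 sets of changes, which share no library, had Pearson r = -0.15. Both were positive for 42 members, only the dCas9 value for 29, only the ZF value for 15, and neither for 6.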

How the data were processed

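RNA-seq of 10 Neuro2a libraries was used. The authors deposited raw read counts per gene, 1 unstranded and 2 strand columns per library. The tools named per the submitters' processing notes are STAR 2.7.3a, bcl2fastq 2.20 and DESeq2, with build GRCm38; the annotation release is not given in the sources used here. Because both strand columns held similar totals, the unstranded column was used. Unmapped, multimapping, no-feature and ambiguous reads (25.0% to 28.2% of listed reads) and 4 plasmid entries stayed out of library sizes. Reads in more than 1 gene or place are thus absent, which lowers members with copies or overlaps.

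CPM is the count scaled to the library's sum of gene counts. Each repressor was tested against its own control with edgeR 4.0.16 (R 4.3.3; quasi-likelihood, TMM, filterByExpr, robust, two-sided), adjusted over all genes; the difference used all 10 libraries. The ZF fit has 2 residual degrees of freedom, and its spread is pooled strongly across genes. In simulated counts with 200 genes changed 2-fold, 90.5% (dCas9) and 89.0% (ZF) were called, as were 12 unchanged genes in each. The simulation drew on all genes tested and gave them 1 common spread, of 6.07% (dCas9) and 5.12% (ZF). It therefore does not give the share that would be called among these lincRNAs. Their median level was lower than that of coding genes and most changed less than 2-fold. Intervals are SE. Near-identical stretches were found with blastn 2.17.0. Alternatives were other scaling, filters, DESeq2 1.42.0, limma-voom (limma 3.58.1), 1 fit of all libraries, replicate block, exon length correction, a strand column, other member rules, and each library left out.

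The members and gene lists were chosen with earlier results of these data known. Named genes are members called in any test, the 10 highest per kilobase, the 4 largest increases and decreases in each pair, members in the lists, and the 3 genes on either side of the minimum. Gm13431's neighbours and the printed motifs were chosen after values were seen.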

Additional observations from a re-analysis of the deposited data

Results flagged for a closer look

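Gm13431 was picked out because the repressors' changes differed by the test of the difference itself: the dCas9 change minus the ZF change was 2.61 on the log2 scale, higher in 3 of 3 dCas9-SCN9A libraries than in every dCas9-empty library and lower in 2 of 2 ZF-SCN9A libraries than in both mCherry libraries. Gm45833 was picked out by the same test, at 0.93 on the log2 scale, with 3 of 3 dCas9-SCN9A libraries above every dCas9-empty library and 2 of 2 ZF-SCN9A libraries below both mCherry libraries.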

How the results depend on the processing

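Under edgeR with the replicate number as a block, 4 members were called with dCas9 (Gm10827, Gm21781, Gm42047 and Gm45833), 7 with ZF and 6 in the difference. With the block and an exon length correction the counts were 5, 10 and 5. Over all genes the dCas9 calls went from 6 in the main fit to 262 with the block and 95 with both. The ZF calls over all genes went from 609 to 570 and 876. Counts over all genes for the difference are not given here. Same-numbered libraries had deviation correlations of 0.24, 0.16 and 0.04 in the dCas9 pair, and differently numbered ones -0.23 to 0.10. In the ZF pair the values were 0.07 and -0.07, which 2 libraries per group force to be equal in size. These values do not settle whether the numbers pair the samples.

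Leaving out 1 library gave 0 to 2 dCas9 calls, 1 to 8 ZF calls and 1 to 5 difference calls. The dCas9 count was 0 by edgeR when dCas9-empty replicate 2 or dCas9-SCN9A replicate 3 was left out, with 12 and 10 members at an unadjusted p under 0.05, and the full data gave 2 calls by DESeq2 and 1 by limma-voom. Without dCas9-empty replicate 3 it was 2 (Neat1 added). Over all genes edgeR called 3 without dCas9-empty replicate 2, 1 without dCas9-SCN9A replicate 3 and 21 without dCas9-empty replicate 3. Without the filter the dCas9 count was 3, with 172 over all genes. The difference count was then 4, with no share over all genes given here to set it against. For ZF, DESeq2 called 0 (11 at an unadjusted p under 0.05) where limma-voom called 6. A single fit of all libraries called 2, with 348 over all genes, and the strand column 2, with 283. The strand column, which holds fewer reads, gave 0 difference calls (15 at an unadjusted p under 0.05) where DESeq2 and limma-voom on the full counts gave 2 each. Members at 10 CPM gave 1 difference call. The cause of these shifts was not tested, apart from the smaller set of genes or samples that some settings impose.

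The signs that turned belong to values that edgeR did not call in that comparison on all its libraries. With dCas9 Bc1 was at 0.0137 with plain library size and at 0.0066 with a filter at 1 CPM. With dCas9 and both block and length correction Snhg6 was at -0.0285 and Epb41l4aos at -0.126; with the length correction alone they were at -0.0283 and -0.114. In the strand column Epb41l4aos was at -0.0293, Pvt1 at -0.0420, Meg3 with ZF at -0.226 and Mir17hg with ZF at 0.0465. Leaving out 1 library moved the dCas9 values between -0.0473 and 0.050 for Bc1, -0.118 and 0.142 for Snhg12, -0.0363 and 0.109 for Snhg6, and -0.0928 and 0.181 for Epb41l4aos. It moved the ZF values between -0.202 and 0.340 for Meg3, -0.0117 and 0.170 for Neat1, and -0.521 and 0.130 for Mir17hg. Gm13431 kept its direction in every ZF setting run that gave it an adjusted p. Its difference between repressors was 1.24 on the log2 scale at its lowest over the settings. In the strand column that difference was not called (edgeR test of the difference, adjusted p = 0.500). Depth limits the ZF pair, where a read is worth 0.134 to 0.227 CPM.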
